A study of Mus musculus with 7 samples.

Results

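Among 8453 thymic epithelial cells of mouse, 379 cells (4.48%, exact 95% interval 4.05 to 4.95%) carried no Aire UMI and held transcripts of at least 2 of 6 tissue-restricted genes. The 6 genes were Bpifa1 and Reg3g, secreted defence proteins of the airway and of the gut, Spink1, a trypsin inhibitor of the pancreas, Hamp, the liver hormone hepcidin, Cyp2a5, a cytochrome P450 of liver and nasal mucosa, and Fabp9, a fatty acid binding protein of the testis. A member cell further had no UMI of the leukocyte gene Ptprc or of the tuft cell channel Trpm5, a Krt10 value of at most 1.5, a Ccl21a value of at most 4 and fewer than 3 of 8 cell cycle genes. Values were the natural log of 1 plus the UMIs (transcript molecules) per 10000 UMIs of a cell, and are called ln values here. Members were thus selected on the measured values of these 19 genes, whose levels are given as a description.

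The 7 libraries were made from C57BL/6 thymi, each a pool of 3 thymi from which CD45- EpCAM+ cells were sorted. In the Aire trace library (mice aged 6 weeks, Aire-CreERT2-R26-CAG-Stopfl-zsGreen, 2 mg tamoxifen every other day for 10 days) the recombinase was driven from Aire, so ZsGreen marked cells that expressed Aire during treatment and their descendants. The remaining 6 libraries came from mice without the reporter given 100 ug of antibody in 3 treatments over 1 week. Isotype controls were taken at week 2 (aged 4 weeks) and week 10 (aged 12 weeks), and mice given anti-RANKL, which blocks the cytokine that drives the growth of Aire-expressing medullary cells, at weeks 2, 4, 6 and 10 (aged 4, 6, 8 and 12 weeks). Each anti-RANKL time was 1 library and the 2 isotype controls differed in age, so no test between conditions was run, and age moved with the week. The libraries held 730 to 1475 cells with median depths of 4300 to 16809 UMIs, and the 8453 barcodes were 8403 distinct sequences, 50 of which occurred in 2 libraries. Doublets were not called.

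Medullary thymic epithelial cells (mTECs) display proteins of other tissues to developing T cells, which removes self-reactive clones. The transcription regulator Aire raises many of these tissue-restricted genes in mature mTECs, each in a small share of cells. After Aire is switched off, some cells of the lineage take on programmes that resemble peripheral epithelia, among them keratinised, tuft, microfold and secretory types.

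The 6 rule genes did not mark a single secretory cell type. They belong to airway, gut, pancreas, liver and testis, and 811 of 1769 cells with an Aire value above 1.5 (45.8%), called Aire-high cells below, also held at least 2 of them. Of 20 other airway mucosal genes, 5 reached a mean ln value of 0.1 in either class. Muc5b and Scgb1a1, the mucin and secretoglobin that define airway secretory cells, averaged 0.02 and 0.12 in the members. Of that list Wfdc2, a protease inhibitor, was higher than in Aire-high cells in every library compared, and Muc1, a mucin, lower. The list summed to a median of 22.1 UMIs per 10000 in the members and 4.81 in Aire-high cells. Means over all members cannot show whether some of them were airway-like. Cyp2a5 and Fabp9 are not secreted proteins. The cells are therefore called Aire-negative tissue-antigen cells, or tissue-antigen cells. The epithelial genes Epcam and Krt8 averaged 1.92 ± 0.23 (SD over 6 libraries) and 2.57 ± 0.23 in them. T cell genes other than Cd52, 9 of 12 tested, summed to 0.0854 to 0.890 UMIs per 10000 over the libraries, against 7.23 to 42.9 in 69 Ptprc-positive cells with at least 2 T cell genes, called T cell-like cells, a level that their selection on such genes had set. General epithelial genes summed to a median of 41.3 UMIs per 10000 in the T cell-like cells, against 38.0 in Aire-high cells, and whether they were doublets was not tested. Of 10 tuft genes Gnat3 was at 0, and the list summed to 0.908 to 1.94 UMIs per 10000.

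Promoters are shown for the 4 rule genes matched in the RefSeq table, all but Spink1 and Fabp9, because the members were chosen by these genes, which come from different tissues. Sequences are the 50 bases before the RefSeq start site (GRCm38.p6), 5′ to 3′ along the gene's strand, with the letters ATAAAA, a form of the TATA box, in capitals.
Bpifa1 (chr2:154142830-154142879, + strand): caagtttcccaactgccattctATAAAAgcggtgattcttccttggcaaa
Reg3g (chr6:78468875-78468924, - strand): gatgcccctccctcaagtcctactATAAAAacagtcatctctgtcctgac
Cyp2a5 (chr7:26835289-26835338, + strand): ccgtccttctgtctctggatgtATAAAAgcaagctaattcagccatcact
Hamp (chr7:30944030-30944079, - strand): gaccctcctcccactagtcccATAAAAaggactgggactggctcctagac
The motif began 26 to 29 bases before the start site in all 4. On the gene's own strand, between 45 and 15 bases before the start, it was present in 659 of 32851 RefSeq promoters (2.01%), in 1 of 9 promoters of the named genes higher than in Aire-high cells and in 0 of 13 of those lower. On either strand anywhere in the 300 bases around the start it was present in 18.5%. The motif was chosen after the values were seen, and a match of letters is a description.

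The cells were found in every library and were scarcest 4 and 6 weeks after anti-RANKL. There were 57 of 1387 cells in the Aire trace library (4.11%, exact 95% interval 3.13 to 5.29%). Isotype controls held 103 of 1163 cells at week 2 (8.86%, 7.29 to 10.6%) and 50 of 1271 at week 10 (3.93%, 2.93 to 5.15%), a mean of 6.40% ± 3.48 (SD, n = 2). The controls thus differed from each other by more than counting error, with age and depth differing as well. After anti-RANKL there were 83 of 1222 cells at week 2 (6.79%, 5.45 to 8.35%), 6 of 1475 at week 4 (0.407%, 0.149 to 0.883%), 14 of 730 at week 6 (1.92%, 1.05 to 3.20%) and 66 of 1205 at week 10 (5.48%, 4.26 to 6.92%). The week 2 and week 10 shares lay between the 2 controls, and the week 4 and week 6 shares lay below both. With all cells thinned to 2000 UMIs before the rule, week 2 fell to 47 cells (3.85%), below both controls (9.11 and 4.33%), of which 10 had held an Aire UMI before thinning, against 48 of 106 and 24 of 55 in the controls. Weeks 4, 6 and 10 then stood at 0.294, 1.79 and 6.64%. Intervals cover counting error only.

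Aire-high cells followed another course. They numbered 456 and 549 in the week 2 and week 10 controls, and 62, 22, 109 and 453 at weeks 2, 4, 6 and 10 after anti-RANKL. Per 100 Aire-high cells there were 134 tissue-antigen cells at week 2 of anti-RANKL, against 22.6 and 9.11 in the controls, 48.3 in the Aire trace library, and 27.3, 12.8 and 14.6 at weeks 4, 6 and 10. The share of each library within the rule's other limits that met the 2-gene requirement was 32.8% in the Aire trace library, 55.7 and 23.5% in the controls, and 30.0, 1.52, 7.49 and 29.5% at the 4 anti-RANKL times.

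**Figure D1:**
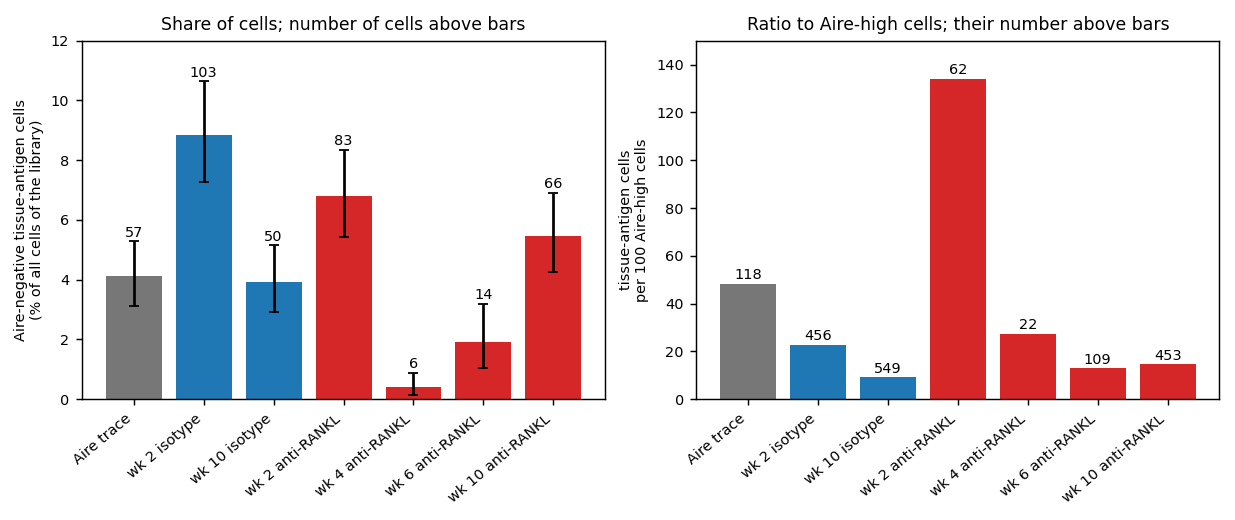
In the 7 libraries, the left bars are the tissue-antigen cells as a share of the cells of each library, with exact 95% binomial intervals, and the right bars their number per 100 Aire-high cells. Week 2 of anti-RANKL had 6.79% (3.85% at 2000 UMIs per cell) beside 62 Aire-high cells, and week 4 had 0.407%.

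Depth and stray RNA bear on these counts, since the rule asks for a UMI. Tissue-antigen cells had median depths of 5112.5 to 11738 UMIs by library, Aire-high cells 7267 to 21905, and 3451 cells with Ccl21a above 4, another mTEC class, 4372 to 14340.5. In the Ccl21a-high cells the share with at least 2 rule genes was 14.1% in the Aire trace library, 30.6 and 6.73% in the week 2 and week 10 controls, and 20.2, 1.91, 5.09 and 7.72% at weeks 2, 4, 6 and 10. The lowest share, at week 4 of anti-RANKL, and the highest, in the week 2 control, thus fell in the same libraries as those of the members, and the part of stray RNA in the members' counts was not tested. When every cell was thinned to 2000 UMIs, which left out 0 members, 6 Aire-high and 108 Ccl21a-high cells, at least 2 rule genes remained in 42.9 to 64.0% of the tissue-antigen cells by library, 5.83 to 25.8% of the Aire-high cells and 0.331 to 3.75% of the Ccl21a-high cells. The members had been chosen for these genes, so the order is no finding.

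Of 1655 cells within the rule's other limits, 867 held none of the 6 genes, 409 held 1 and 379 held 2 or more. Of cells outside those limits, 945 missed membership on Aire alone, 130 of them with 1 Aire UMI. A further 246 cells missed on Ccl21a alone. The highest Ccl21a value inside was 4.00, with 32 members above 3, and the highest Krt10 value was 1.45. Of the members, 74 held a UMI of a cell cycle gene.

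The members held a larger part of the rule transcripts than of the cells, as their selection asks. The 379 cells, 4.48% of all, carried 63.6% of all Spink1 UMIs of the series, 50.3% of Bpifa1, 46.0% of Reg3g, 35.8% of Cyp2a5, 30.5% of Fabp9 and 19.5% of Hamp. The 1769 Aire-high cells carried 12.1% of Spink1, 4.81% of Bpifa1, 22.6% of Reg3g, 16.5% of Cyp2a5, 21.6% of Fabp9 and 37.1% of Hamp. Hamp was the 1 gene of the 6 with more molecules in Aire-high cells.

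Reg3g, a bactericidal lectin of the intestine, was the commonest. It was seen in 303 of the 379 cells, with at least 5 UMIs in 123 and at least 20 in 69, and its highest cell held 4663 UMIs. Its mean ln value was 1.61 in the Aire trace library, 1.97 and 1.75 in the week 2 and week 10 controls, and 1.57, 2.50, 0.94 and 1.68 at weeks 2, 4, 6 and 10 of anti-RANKL. Levels were alike in 5 libraries, highest in the 6 cells of week 4 and lowest at week 6. Among Aire-high cells, which were deeper, 66.5% held a Reg3g UMI, against 79.9% of the members. At 2000 UMIs per cell the shares of members and Aire-high cells with a UMI were 49.1 and 33.9% in the Aire trace, 48.5 and 36.2% for the week 2 control, 58.0 and 30.6% for that of week 10, and 41.0 and 40.3%, 66.7 and 31.8%, 35.7 and 19.4%, and 63.6 and 30.7% at the 4 anti-RANKL times. They lay closest at week 2 of anti-RANKL, and the members had been chosen for this gene.

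Bpifa1, an airway surface protein, was seen in 155 members, with at least 5 UMIs in 45 and 20 in 30. One cell devoted 20.6% of its 12615 UMIs to it. By library the share of members with a UMI was 40.4% in the Aire trace, 35.0 and 20.0% in the controls, and 60.2, 83.3, 92.9 and 27.3% at weeks 2, 4, 6 and 10 of anti-RANKL. At week 6 a UMI was also held by 53.2% of Aire-high, 40.4% of Ccl21a-high and 66.7% of 6 T cell-like cells, above the shares of these classes in the other libraries, and no member there had 5 UMIs. The part of stray RNA in the week 6 share was not tested. The mean ln value was 0.71 in the Aire trace, 0.58 and 0.42 in the controls, and 1.05, 2.61, 1.12 and 0.47 at the anti-RANKL times.

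Spink1 (43728082 to 43737557 on the minus strand of chromosome 18, GRCm38, GENCODE M21) was seen in 150 members, with at least 5 UMIs in 65 and 20 in 42. Its mean ln value was 0.65 in the Aire trace, 1.19 and 0.86 in the week 2 and week 10 controls, and 0.85, 0, 0 and 0.87 at weeks 2, 4, 6 and 10. No UMI was seen in the 6 members of week 4 or the 14 of week 6, which at week 6 allows up to 21.4% of cells with a UMI at this depth (3 counts, counting error only). The gene was scarce in those whole libraries, with 0 and 38 UMIs over all cells against 908 to 7693 in the others. One cell of 27580 UMIs gave 10.5% of them to Spink1 and 16.9% to Reg3g.

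Cyp2a5 was seen in 178 members, with at least 5 UMIs in 78. Its mean ln value stayed near 1 in the Aire trace (1.01), both controls (1.07 and 1.01) and week 10 of anti-RANKL (1.00), was 0.73 at week 2, and was 0.14 and 0.05 at weeks 4 and 6. Hamp was seen in 125 members, with at least 5 UMIs in 45 and a highest count of 597. It averaged 0.89 in the Aire trace, 0.57 and 0.69 in the controls, and 0.26, 0.29, 0.53 and 0.71 after anti-RANKL. Fabp9 (10193621 to 10197283 on the minus strand of chromosome 3) was seen in 105, with at least 5 UMIs in 38, and averaged 0.61, then 0.56 and 0.54 in the controls, and 0.26, 0.13, 0.12 and 0.69. These 3 genes were lower at week 2 than in either control and at or near control levels at week 10.

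At least 5 UMIs of any rule gene, a limit chosen after the values were seen, marked 227 of the 379 members. They numbered 32 of 57 in the Aire trace, 73 of 103 and 37 of 50 in the controls, and 38 of 83, 5 of 6, 1 of 14 and 41 of 66 at weeks 2, 4, 6 and 10. The week 6 cells were thus members by 1 to 4 UMIs per gene in all but 1 case. Pooled over cells, the 6 genes made up 198 UMIs per 10000 in the Aire trace members, 160 and 49.3 in the controls, and 166, 203, 5.58 and 42.8 after anti-RANKL, while Aire-high cells held 3.32 to 14.5 in all libraries. The median member cell held 4.09 to 62.9, below the pooled level in all 7 libraries.

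**Figure D2:**
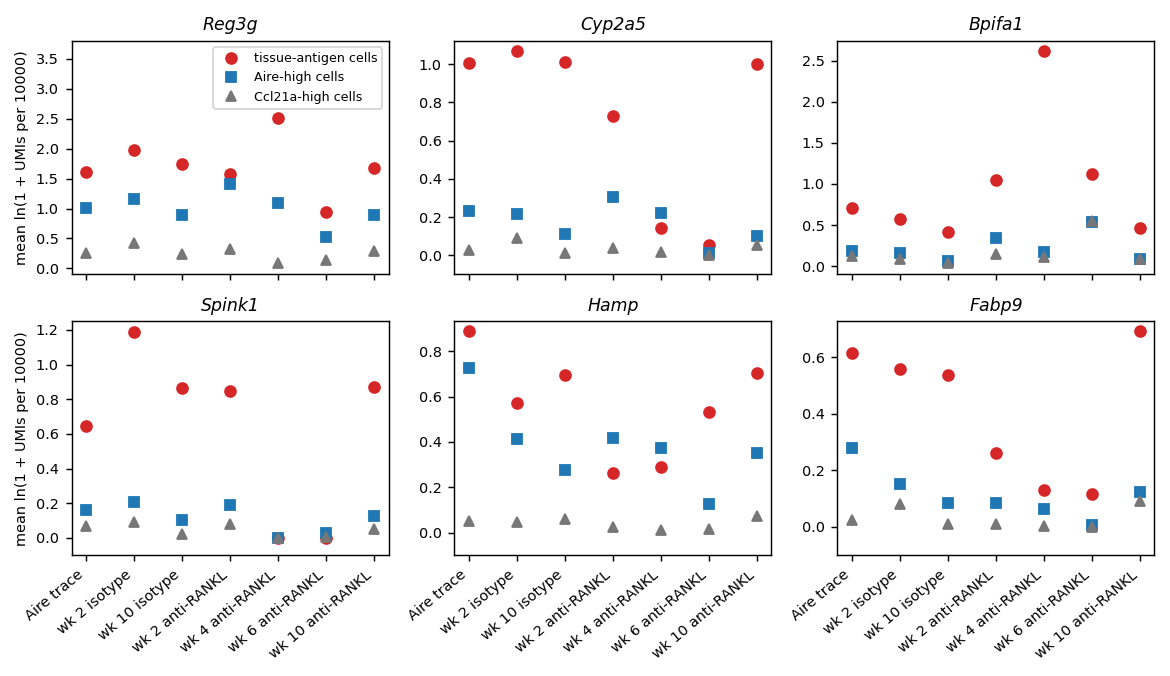
Mean ln value of each of the 6 rule genes in tissue-antigen, Aire-high and Ccl21a-high cells, by library, each panel with its own axis. Spink1 is at 0 in the members of weeks 4 and 6 of anti-RANKL, and week 4 rests on 6 cells.

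The antigens were shared out unevenly among the cells. Exactly 2 of the 6 genes were seen in 206 cells, 3 in 107, 4 in 48, 5 in 17 and all 6 in 1, so that 45.6% (exact interval 40.6 to 50.8%) held 3 or more. The commonest pairs held Reg3g, with Cyp2a5 in 135 cells, Bpifa1 in 119 and Spink1 in 117. Requiring 5 UMIs of both genes left 37 cells with Reg3g and Spink1 (30.1% of the Reg3g-rich and 56.9% of the Spink1-rich cells) and 24 with Bpifa1 and Reg3g (53.3% of the Bpifa1-rich, 19.5% of the Reg3g-rich). Bpifa1 and Hamp were rich together in 2 cells, 4.44% of the 45 cells rich in each. The 2-gene requirement inflates co-detection among members, and these shares are descriptions.

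Cells rich in each antigen differed in other genes. For each antigen the 3 genes with the largest difference between rich and remaining members are given, and Cyp2f2, Apoa4, Cdkn1a, Ccl20 and Rptn, which stood among the first 8, were added after their values were seen. Means and sums pool the members of all 7 libraries, which differ in their share of rich cells, and the direction within a library is counted over the 5 libraries with at least 4 rich cells. Median depth was 9120 to 10934 UMIs in the rich and 8608 to 9218 in the remaining cells. In the 45 Bpifa1-rich cells Wfdc2, a secreted airway protease inhibitor, stood at 2.40 against 1.05 (higher in 4 of 5 libraries). Anxa1, the lipid-binding annexin A1, stood at 2.07 against 1.01 in them (5 of 5). Sftpd, the surfactant protein D, was at 1.11 against 0.21 and Cyp2f2, a P450 of airway club cells, at 1.13 against 0.24. The 20-gene airway list summed to 96.6 UMIs per 10000 in Bpifa1-rich cells and 21.8 in the rest, with the median cell at 26.5 and 4.59. With Spink1 the sum was 49.9 against 27.6. It was 8.36 against 34.5 with Hamp, 16.5 against 33.5 with Fabp9 and 29.3 against 32.2 with Cyp2a5. Median cells with Hamp, Fabp9 and Cyp2a5 went the other way, at 5.41 against 5.30, 8.58 against 4.88 and 11.6 against 4.63. In Reg3g-rich cells the list stood at 63.3 against 14.1 UMIs per 10000 and Wfdc2 at 1.89 against 0.88 (higher in 5 of 5 libraries). Since 24 cells were rich in both Bpifa1 and Reg3g, these values are not independent.

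Reg3g-rich and Spink1-rich cells resembled each other. AW112010, an inducible transcript of immune and epithelial cells, stood at 2.65 against 1.48 with Reg3g and 2.89 against 1.64 with Spink1, and Pglyrp1, a peptidoglycan recognition protein, at 1.78 against 0.79 and 1.97 against 0.93, each higher in 5 of 5 libraries. Spink1-rich cells also held more 2200002D01Rik (1.53 against 0.69), Apoa4, an intestinal apolipoprotein (0.98 against 0.18), and Cdkn1a, the cell cycle inhibitor p21 (1.83 against 1.08). The 28 gut and pancreas genes summed to 51.1 UMIs per 10000 in them and 22.9 in the rest, with the median cell at 23.7 and 1.60. Since 37 cells were rich in both genes, these values are not independent.

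Hamp-rich and Fabp9-rich cells formed another pattern. With Hamp, Serpinb1a, an intracellular protease inhibitor, stood at 2.78 against 1.02, Ubd, the ubiquitin-like FAT10, at 3.74 against 2.33, Csn2, the milk protein beta-casein, at 2.14 against 0.85, and Ccl20, a chemokine of follicle-associated epithelium, at 1.60 against 0.41, each higher in 5 of 5 libraries. The 9 microfold cell genes, which mark the antigen-sampling cells over gut lymphoid tissue, summed to 105 UMIs per 10000 in Hamp-rich members and 30.3 in the others, with the median cell at 48.6 and 15.4. The same sum was 70.5 against 29.8 with Cyp2a5, 57.6 against 34.9 with Spink1, 55.4 against 29.8 with Reg3g, 47.2 against 37.9 with Fabp9 and 26.0 against 40.9 with Bpifa1, whose median cells held 13.1 and 17.3. Gut and pancreas genes summed to 64.8 in Fabp9-rich members and 23.2 in the others, with the median cell at 9.83 and 2.06. Fabp9-rich cells were highest in Fabp4 (3.09 against 1.26), Cd52 (3.11 against 1.42) and Srgn (3.50 against 2.07), the proteoglycan serglycin. Both held more MHC class II and costimulation transcripts than the remaining members, at 368 against 282 UMIs per 10000 with Hamp and 436 against 273 with Fabp9, whereas Bpifa1-rich cells held 219 against 303. In Aire-high cells the same gaps were 0.93 for Serpinb1a with Hamp, 1.71 for Fabp4 with Fabp9 and 0.22 for Wfdc2 with Bpifa1.

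Cyp2a5-rich cells differed by Wfdc18, Atp1b1, Serpinb2 and Rptn. Wfdc18, a secreted protease inhibitor, stood at 2.94 against 1.68, Atp1b1, a sodium pump subunit, at 2.18 against 1.22, and Rptn, the epidermal protein repetin, at 1.28 against 0.44, each higher in 5 of 5 libraries. Serpinb2, a serine protease inhibitor, stood at 1.35 against 0.50 and was higher in 4 of 5. The 15 keratinocyte genes summed to 42.5 UMIs per 10000 in them and 23.9 in the others, with the median cell at 13.5 and 2.17. The same sum was 42.8 against 26.2 with Fabp9, 39.8 against 25.5 with Spink1 and 36.1 against 27.0 with Hamp. It was 20.0 against 29.3 with Bpifa1 and 19.7 against 32.7 with Reg3g, where the median cells went the other way, at 7.44 against 2.73 and 3.81 against 2.59.

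With 1 UMI in place of 5 as the limit, the 3 genes that differed most were Ifi27l2a, Anxa1 and Wfdc2 with Bpifa1, Pglyrp1, Hsp90b1 and Krt8 with Reg3g, and AW112010, 2200002D01Rik and Apoa4 with Spink1. They were Ubd, Serpinb1a and Csn2 with Hamp, Wfdc18, Ly6d and Serpinb2 with Cyp2a5, and Cd52, Fabp4 and Ubd with Fabp9. The differences ran from 0.42 for Apoa4 to 1.57 for Cd52.

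Some genes that lie next to a rule gene were seen in the same cells, and the ones named here were picked for their difference. Cyp2g1, a P450 of the nose whose start lies 26.4 kb from that of Cyp2a5 on chromosome 7, was seen in 30 of 78 Cyp2a5-rich members (38.5%) and 9 of 301 others (2.99%). Fabp4, 11.3 kb from Fabp9 start to start on chromosome 3, was seen in 36 of 38 Fabp9-rich members (94.7%) and 177 of 341 others (51.9%), and Fabp12 in 18 of 38 (47.4%) and 68 of 341 (19.9%). These are paralogues of the rule genes, so part of their reads can be uncertain.

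Near Bpifa1 on chromosome 2, Bpifb1 was seen in 11 of 45 rich members (24.4%) and 14 of 334 others (4.19%), and Bpifa5 in 8 (17.8%) and 6 (1.80%). Near Reg3g on chromosome 6, Reg1 was seen in 14 of 123 (11.4%) and 5 of 256 (1.95%). Near Spink1 on chromosome 18, Scgb3a2, an airway secretoglobin, was seen in 12 of 65 (18.5%) and 14 of 314 (4.46%), and Spink5, the epidermal protease inhibitor, in 38 (58.5%) and 76 (24.2%). Hamp2, a near-identical copy of Hamp, was seen in 9 of 45 (20.0%) and 8 of 334 (2.40%), and the split of reads between the copies is uncertain.

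Not every neighbour moved. Within 500 kb, mean ln values were higher in the rich cells for 5 of 5 Reg3g neighbours, 7 of 9 at Spink1, 7 of 11 at Fabp9, 21 of 40 at Hamp, 5 of 10 at Cyp2a5 and 8 of 19 at Bpifa1. Over all 16039 genes the shares higher were 37.6 to 47.7%, so the 19 Bpifa1 neighbours (42.1%) did not stand out from all genes (43.0%). Most neighbours were close to 0 in both sets of cells.

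**Figure D3:**
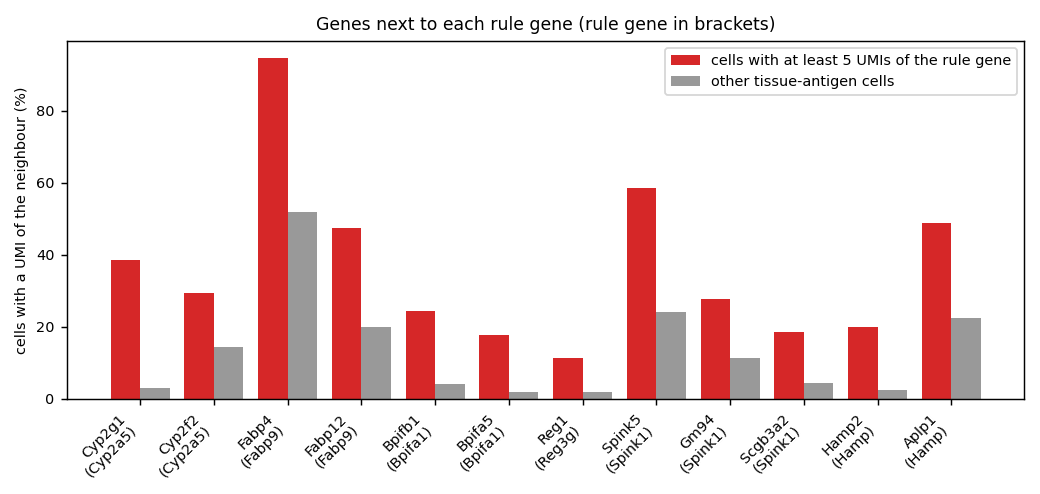
Share of members with a UMI of named neighbours of each rule gene, in members with at least 5 UMIs of the rule gene and in the remaining members. Cyp2g1 was seen in 38.5 against 2.99% and Fabp4 in 94.7 against 51.9%.

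Against Aire-high cells, tissue-antigen cells had lower MHC class II genes, S100a14 and Srgn and higher Fxyd3, Ly6e and Sfn. A gene was counted where its mean ln difference over 6 libraries was at least 0.5 with the same sign in every library (week 4, with 6 cells, was left out). Of 20595 genes outside the rule 23 were higher (0.112%) and 102 lower (0.495%). Without the week 6 library, which has 14 member cells, 53 were higher and 142 lower, and these held 22 of the 23 and all of the 102. With members holding at least 5 UMIs of a rule gene the counts were 75 and 179 over 5 libraries. Over the 7377 genes that averaged 0.1 or more in a class, the median difference was 0.0027, so the scale was centred.

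Fxyd3, a small regulator of the sodium pump, differed most among the genes that were higher. In the members it was 2.03 in the Aire trace and 1.99 and 1.32 in the week 2 and week 10 controls. At weeks 2, 6 and 10 of anti-RANKL it was 1.85, 1.45 and 1.39. In Aire-high cells these library means were 0.80, then 0.41 and 0.34, and 0.56, 0.82 and 0.42. The library means of Fxyd3 in the 2 classes did not overlap. How many other genes separate so was not counted, and single cells were not compared. Its ln values in the members averaged 1.67 ± 0.32 (SD over 6 libraries) against 0.56 ± 0.21 in Aire-high cells, a difference of 1.11 ± 0.32. The Ly6 family surface proteins Ly6e (2.83 against 1.90) and Ly6a (1.57 against 0.67) were also higher. So were Sfn, the epithelial 14-3-3 protein sigma (1.73 against 0.92), Anxa1 (1.05 against 0.31), and Perp, a desmosome protein (1.19 against 0.54). Cdkn1a stood at 1.11 against 0.45, a difference of 0.66 ± 0.31.

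The remaining genes of the highest 12 were Ifitm3, an interferon-induced membrane protein (3.05 against 2.26), Itm2b, a membrane protein (2.99 against 2.22), Hspb1, a small heat shock protein (1.62 against 0.85), Atp1b1 (1.30 against 0.57) and Hist1h2bc, a histone H2B (1.56 against 0.88). Of these 12 genes, 8 were at or above the level of the members in the cells with fewer than 2 rule genes or in the Ccl21a-high cells. Cells within the same limits but with fewer than 2 rule genes had Ly6a at 1.98, Ly6e at 2.97, Ifitm3 at 3.52 and Itm2b at 3.37, all above the members, and Ccl21a-high cells had Ly6a at 1.96, Ifitm3 at 4.19, Sfn at 1.82, Hspb1 at 1.85, Anxa1 at 1.37 and Perp at 1.66. Fxyd3 was 1.46 and 1.47 in these 2 classes, within 1 SD of the members. Cdkn1a was 0.51 and 0.42 in those 2 classes, below the 1.11 of the members.

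S100a14, a calcium-binding protein of epithelia, differed most in the other direction. In the members it was 1.38 in the Aire trace, 1.59 and 1.65 in the controls, and 1.44, 0.93 and 1.52 at weeks 2, 6 and 10 of anti-RANKL, and in Aire-high cells 2.63, then 2.90 and 2.87, and 3.01, 2.16 and 2.77. The library means of S100a14 in the classes did not overlap, averaging 1.42 ± 0.26 against 2.72 ± 0.31 in Aire-high cells (difference -1.30 ± 0.13). It was followed by Gm13305, a predicted gene of the repeated region of chromosome 4 that also holds Ccl19 and Ccl21a, where reads of near-identical copies are uncertain (1.66 against 2.92), and Srgn (2.10 against 3.33). The Srgn difference ranged from -0.45 in the week 10 control to -2.42 at week 2 of anti-RANKL. The neuropeptide gene Calcb (0.57 against 1.72) and the hormone gene Fgf21 (0.55 against 1.63) were lower too. So were Ccl19 (0.71 against 1.77), a chemokine that guides thymocytes, and Cxcl10 (0.78 against 1.81), a chemokine for activated T cells. The last 5 of the 12 were Lrrc42, H2-DMb2, Tbata, Nsmce1 and Hagh, with differences of -1.12, -1.02, -1.02, -1.01 and -0.98.

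Of the 102 lower genes, 10 were by the same rule higher than in cells with fewer than 2 rule genes. Among them were Srgn, at 1.02 in those cells, S100a14 at 0.79, Ubd, Cyba, Nfkbia, Gm13305, Csn2 and H2-Oa. Calcb (0.30) averaged below the members there without meeting the rule, as did Fezf2, a regulator of tissue-restricted genes in mTECs, which was 1.75 in Aire-high cells, 0.87 in the members and 0.37 in cells with fewer than 2 rule genes.

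**Figure D4:**
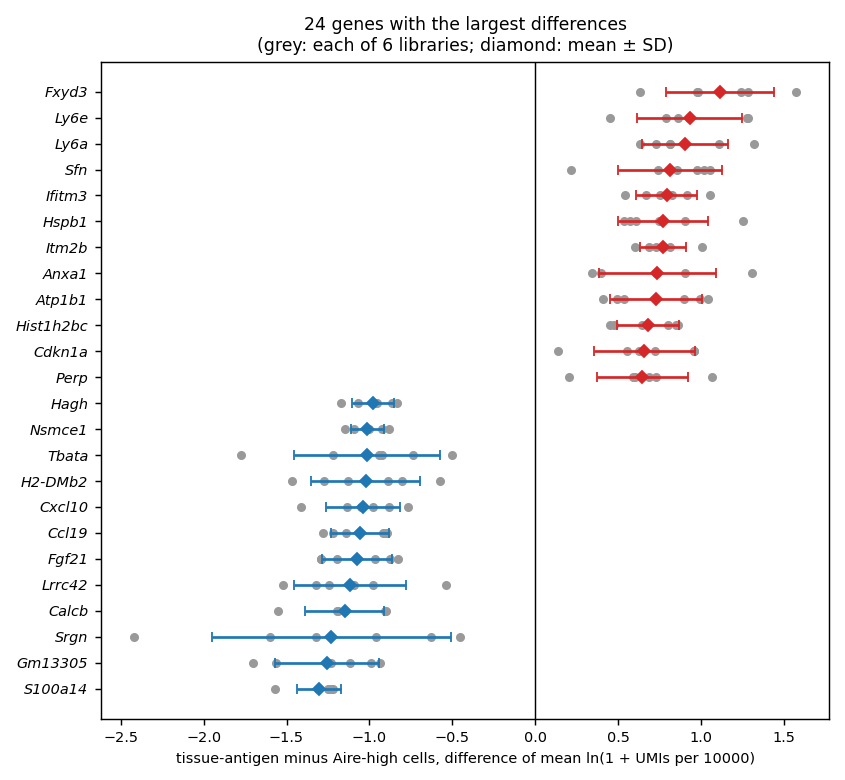
Mean ln difference, tissue-antigen minus Aire-high cells, of the 12 genes with the largest difference each way, with a grey point for each of 6 libraries and a diamond and bar for the mean and SD. Fxyd3 stands at 1.11 and S100a14 at -1.30.

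Gene lists were described by counts, beside those 7377 genes, of which 0.312% were higher and 1.38% lower by the rule, while 12.0% were higher and 16.3% lower in all 6 libraries by any amount. Antigen presentation held the most calls of the 23 lists. Of 15 MHC class II and costimulation genes 0 were higher and 7 lower, with a median difference of -0.46, and 10 were lower in every library. Cd74, the invariant chain, stood at 4.63 ± 0.40 against 5.36 ± 0.14, H2-Aa at 3.40 ± 0.41 against 4.07 ± 0.19, and H2-Eb1, H2-Oa and H2-DMb2 were lower likewise. Cd40, a receptor for T cell help, was 0.35 against 0.93 and Icosl, a costimulatory ligand, 0.13 against 0.68. Cd80 was lower in 6 of 6 libraries by 0.19, short of the 0.5 limit. On the scale of summed UMIs used above, the list had a median of 293 in the members and 457 in Aire-high cells. It was 236 in cells with fewer than 2 rule genes and 265 in Ccl21a-high cells, whose ranges overlapped the 188 to 431 of the members. By these sums the members were low against Aire-high cells and not against those other classes.

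By library, H2-Aa in the members was 3.40 in the Aire trace, 3.32 and 3.87 in the week 2 and week 10 controls, and 2.68, 3.00, 3.40 and 3.72 at weeks 2, 4, 6 and 10 of anti-RANKL. In Aire-high cells it was 4.14, then 4.17 and 4.19, and 4.17, 3.90, 3.70 and 4.05. The members were below the Aire-high cells of their own library in all 7 cases, least at week 6.

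Chemokine and signalling lists held few calls. Of 10 medullary chemokines, Ccl19 and Cxcl10 were lower and 0 higher. Of 14 genes of the RANK and NF-kB pathway, which carries the RANKL signal, Nfkbia, the inhibitor induced by the pathway, was lower (2.22 ± 0.46 against 2.83 ± 0.29) and 0 were higher. Nfkbia, Nfkb2 (0.43 against 0.73), Relb (0.71 against 1.12) and Tnfrsf11b, the decoy receptor of RANKL (0.30 against 0.54), were lower in every library, 4 of 14 beside the 16.3% of all genes, and Ltbr was higher in every library (0.22 against 0.11). The summed list was higher in the members in 1 of 6 libraries. Tnfrsf11a, the RANK receptor itself, was 0.44 ± 0.13 against 0.55 ± 0.13, with 3 libraries each way. Of 11 regulators of thymic epithelium Fezf2 was lower, and Trp63 (0.39 against 0.20) and Irf7 were higher in every library by less than 0.5. Of 21 regulators of other epithelia Cdx1, an intestinal factor, was lower (0.54 against 1.38), and Klf4, a factor of differentiated epithelia, was higher in every library (0.75 against 0.37).

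Tissue lists beyond the rule genes held few calls by gene, while several summed higher. The airway list summed to a median of 22.1 UMIs per 10000 over the libraries in the members and 4.81 in Aire-high cells (higher in 5 of 6 libraries), keratinocyte genes to 22.6 and 4.36 (6 of 6), antimicrobial genes to 59.5 and 28.4 and gut and pancreas genes to 26.6 and 10.6 (5 of 6 each). Microfold genes summed to 39.3 and 22.7 (4 of 6), and genes of saliva, tears and milk to 6.81 and 10.9 (higher in 1). These sums pool UMIs, and most members lay lower. Over all 7 libraries the median member held 5.36 UMIs per 10000 of the airway list and the median Aire-high cell 3.12. For keratinocyte genes these were 3.01 and 0.968, for antimicrobial genes 11.7 and 9.45, for gut and pancreas genes 2.202 and 1.674 and for microfold genes 17.0 and 19.0. The member median was the higher in 5, 6, 5, 3 and 4 of 7 libraries. Of 20 airway genes Wfdc2 was higher (1.03 ± 0.45 against 0.40 ± 0.10), and Muc1 was lower in every library without meeting the rule. Of 15 antimicrobial genes none was called. Pglyrp1 (0.96 against 0.48), Lcn2, an iron-trapping protein (0.23 against 0.05), and Defb1, a defensin (0.44 against 0.10), were higher in every library, and Lyz2, S100a8 and S100a9 lower in every library. Of 28 gut and pancreas genes tested, 15 liver genes and 11 testis genes none was called, and of 13 genes of saliva, tears and milk Csn2 was lower (1.03 against 1.69). None of 15 keratinocyte and 9 microfold genes was called, though Ccl9 (0.41 against 0.10) and Tnfaip2 were higher and Spib lower in every library.

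Epithelial, immediate early and interferon genes were higher in every library at a larger share than the 12.0% of all genes. Cldn3, a tight junction protein, was higher (0.88 against 0.29), and 5 of 9 general epithelial genes, Epcam among them, were higher in all libraries. Of 10 immediate early and heat shock genes, which dissociation of tissue is known to raise, 0 were called and 8 were higher in all libraries, with Jun at 1.72 against 1.24 and Atf3 at 0.89 against 0.41. Ccl21a-high cells had Jun at 2.52 and Atf3 at 1.06. Of 10 interferon-stimulated genes 0 were called and 7 were higher in all libraries, such as Isg15 (0.84 against 0.42), which was 1.61 in Ccl21a-high cells. The secretory pathway went the other way. Of its 15 genes, with those of the unfolded protein response, Hsp90b1 (1.51 against 2.07) and Calr (1.62 against 2.24), chaperones of the endoplasmic reticulum, were lower and 0 higher, and 6 were lower in every library, the others being Sdf2l1, Pdia6, Sec61b and Atf4, and 0 higher. The list summed to a median of 37.3 UMIs per 10000 in the members and 55.4 in Aire-high cells, with the members below in 6 of 6 libraries. It came to 34.1 in cells with fewer than 2 rule genes and 35.9 in Ccl21a-high cells, so these classes were no higher than the members.

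Markers of other cells were counted too. Of 8 cortical epithelial genes Tbata was lower, while Ackr4, Cxcl12 and Ctsl were higher in every library by less than 0.5, and the list summed to 7.33 to 35.2 UMIs per 10000 against 12.9 to 31.7 in Aire-high cells. None of 10 genes of Ccl21a-high cells, 10 tuft, 7 neuroendocrine, 10 T cell and 8 myeloid and B cell genes was called. The T cell list summed to 5.59 to 35.4 UMIs per 10000 in the members and 7.0 to 11.9 in Aire-high cells, nearly all of it Cd52, at 2.72 in Hamp-rich and 1.43 in the remaining members. The myeloid and B cell list summed to 1.77 to 5.36 against 3.77 to 5.13, with Itgax at 0.

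Cells within the same limits but holding fewer than 2 rule genes gave another view, with 43 genes higher (0.224%) and 25 lower (0.13%) of 19212 in the members by the same rule. The highest were Ubd, Srgn and Cd52, at 1.25, 1.08 and 1.03, and Cyba, a subunit of the phagocyte oxidase, at 0.99. Dcn and Ctsl were lowest, both at -1.04. Ctsl belongs to the cortical epithelial list. On the scale of summed UMIs used above, that list came to 38.4 to 46.9 in the cells with fewer than 2 rule genes and 7.33 to 35.2 in the members. The largest library sums were 7.54 and 1.94 for tuft genes and 33.7 and 6.98 for neuroendocrine genes. The medians were 1.83 and 1.29, and 5.47 and 2.94. Which cell types this class holds, and their part in any contrast with it, was not tested. Median depth was higher in the members in all 7 libraries, at 5112.5 to 11738 against 3298 to 9425 UMIs, and its part in this contrast was not tested.

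The make-up of the members changed along the anti-RANKL course. Srgn was 2.07 in the Aire trace, 2.68 and 2.98 in the week 2 and week 10 controls, and 1.18, 1.36, 1.02 and 2.69 at weeks 2, 4, 6 and 10. Ubd was 2.23, then 2.86 and 3.24, and 1.45, 1.58, 1.75 and 3.16. Both were below the 2 controls at weeks 2 to 6 and near them at week 10.

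Cd52 was 1.66 in the Aire trace, 1.80 and 2.01 in the controls, and 0.56, 0.53, 0.81 and 2.42 at weeks 2, 4, 6 and 10. Fabp4 was 1.71, then 1.75 and 1.61, and 0.76, 0.25, 0.23 and 1.88. Csn2 was 0.97, then 1.24 and 1.47, and 0.23, 0, 0.85 and 1.42. These were genes of the Hamp-rich and Fabp9-rich cells, and those rich cells were also fewer at week 2 of anti-RANKL, at 4 with Hamp and 5 with Fabp9 of 83 members, against 13 and 13 of 103 in the week 2 control.

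Aire-high cells did not share this low at week 2. Their Srgn was 3.60, against 3.64 and 3.44 in the controls, and their Ubd 3.74 against 3.59 and 3.64. At weeks 4 and 6 their Srgn was 2.64 and 2.62.

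Of the genes higher in Bpifa1-rich cells, Anxa1 and Wfdc2 took another course, and the others are not given by library. Wfdc2 was also higher in Reg3g-rich cells. Anxa1 in the members was 1.16 in the Aire trace, 1.11 and 0.97 in the controls, and 1.70, 2.00, 0.79 and 0.56 at weeks 2, 4, 6 and 10. Wfdc2 was 1.21, then 1.45 and 0.64, and 1.58, 3.21, 0.54 and 0.75. Both genes were above the 2 controls at weeks 2 and 4, and at week 6 both were below them, as Anxa1 also was at week 10. Bpifa1-rich cells numbered 12 of 83 at week 2 of anti-RANKL and 14 of 103 in the week 2 control.

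Of 1648 genes that averaged 0.5 or more in the members of week 2 or of the controls, 26 were lower by at least 0.5 at week 2 of anti-RANKL than in both controls (1.58%) and 34 were higher (2.06%), with 1 treated library and so no test. Among those higher were genes that T cell-like cells of the same libraries also showed. Pth, parathyroid hormone, was 0.76 in the Aire trace members, 0.07 and 0 in the controls, and 1.03, 0.42, 2.19 and 0.01 after anti-RANKL. In the T cell-like cells it was 0.82, then 0.06 and 0.26, and 1.19, 0.53, 2.05 and 0, the same order of libraries as in the members apart from values near 0. Krt14 (1.43 at week 2 of anti-RANKL against 0.79 and 0.83) and Krt5 (1.53 against 0.80 and 0.44), keratins of the Ccl21a-high cells, also moved, with Ccl21a at 2.32 against 1.07 and 1.11. Srgn in the T cell-like cells was 1.39 at week 2 of anti-RANKL and 2.07 and 2.71 in the controls, so it moved there as well, and its part in the members was not tested.

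**Figure D5:**
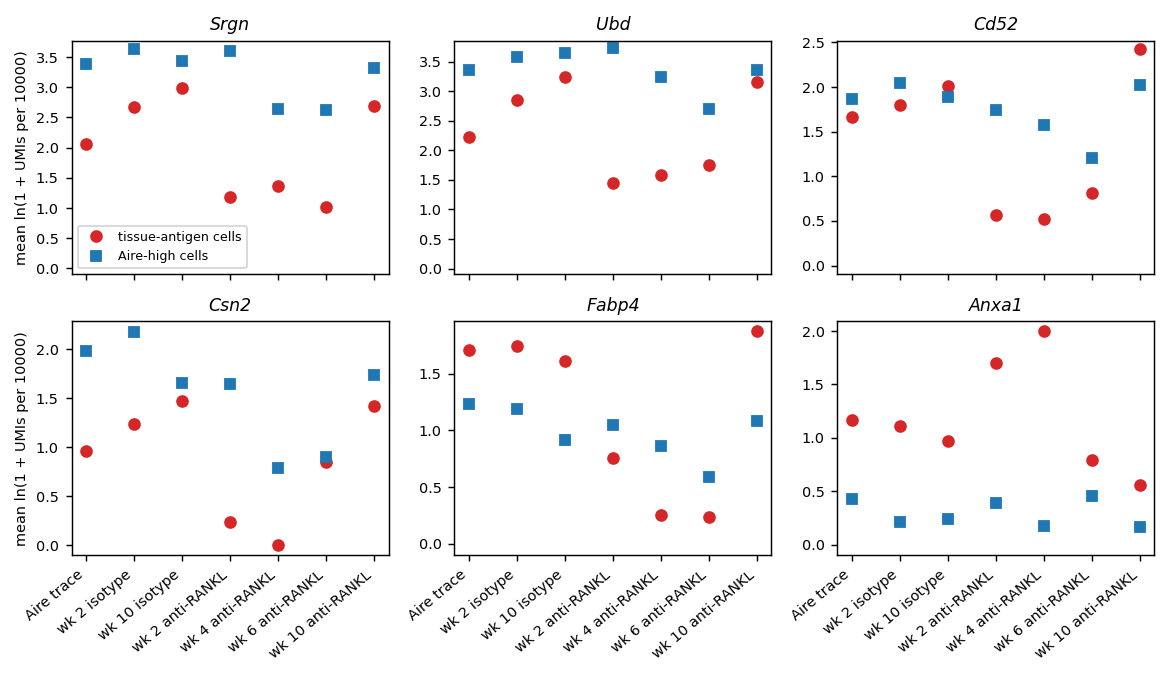
Mean ln value of 6 genes in tissue-antigen and Aire-high cells by library. In the members Srgn, Ubd, Cd52 and Fabp4 are low at weeks 2 to 6 of anti-RANKL and near the controls at week 10, and week 4 rests on 6 cells.

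In the Aire trace library ZsGreen transcripts, listed there as GFP, were seen in 44 of 57 tissue-antigen cells (77.2%, exact 95% interval 64.2 to 87.3%). They were seen in 106 of 118 Aire-high cells (89.8%, 82.9 to 94.6%), in 40 of 117 cells within the limits with fewer than 2 rule genes (34.2%, 25.7 to 43.5%) and in 326 of 875 Ccl21a-high cells (37.3%, 34.0 to 40.6%). The T cell-like cells, which also carried epithelial transcripts and so are no clean background, held it in 12 of 18 (66.7%, 41.0 to 86.7%) at a median depth of 12338 UMIs against 9407 in the members. The interval of the members overlapped that of the T cell-like cells. It lay above those of the cells with fewer than 2 rule genes and the Ccl21a-high cells, whose median depths were 6915 and 8676 UMIs. These intervals cover counting error in the cells of 1 library only, and no test between classes was run.

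At 2000 UMIs per cell the shares were 42.1% of the members (29.1 to 55.9%) and 60.2% of Aire-high cells (50.7 to 69.1%). They were 19.7% of cells with fewer than 2 rule genes (12.9 to 28.0%) and 10.9% of Ccl21a-high cells (8.87 to 13.1%). The share of T cell-like cells was 27.8% (9.69 to 53.5%). Pooled levels were 3.94 ZsGreen UMIs per 10000 in the members, 4.71 in Aire-high cells, 1.20 and 0.819 in the other 2 epithelial classes and 2.86 in T cell-like cells. Among members the share was 15 of 16 with Fabp9 (93.8%), 23 of 26 with Cyp2a5 (88.5%), 34 of 42 with Reg3g (81.0%), 18 of 23 with Bpifa1 (78.3%), 19 of 27 with Hamp (70.4%) and 13 of 22 with Spink1 (59.1%, 36.4 to 79.3%). The intervals of the highest and lowest, 69.8 to 99.8% and 36.4 to 79.3%, overlapped.

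Tissue-antigen cells were not poorer in genes than Aire-high cells at equal depth. At 2000 UMIs per cell the members showed 990 genes and Aire-high cells 961, averaged over 6 library medians, a difference of 28.8 ± 25.4 (SD over 6 libraries) that was lower in 0 of them.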

How the data were processed

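Single-cell RNA-seq libraries (10x Genomics, UMI-based) of sorted mouse thymic epithelial cells were analysed from 7 per-sample tables. Per the submitters' processing notes the tools were Cell Ranger 2.2.0 and Seurat 2.3.4, with genome mm10. The authors filtered cells and deposited natural log values, which worked out as the log of 1 plus UMIs per 10000 UMIs of a cell. Whole UMIs were recovered from every cell (tolerance 0.001), and tables that combine samples were not used here. Cell classes were set from the deposited values, and no doublet caller was run.

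Mean values per class and library were compared where a library held at least 10 cells of both classes. Each anti-RANKL time and the Aire trace had 1 library and the isotype controls differed in age, so errors are the SD over libraries, or exact binomial (Clopper-Pearson) 95% intervals that cover counting error only, and nothing was tested. The 23 gene lists (304 genes) and the members were chosen with earlier results of these data known. Named genes were the rule genes, the list genes, the 12 with the largest difference each way among genes with a mean of 0.5 or more and the same sign in every library, and the 3 that differed most between members with and without each rule gene. The 5-UMI limit, the genes named from it (the first 3 for each rule gene and 5 more of the first 8), their neighbours, the T cell-like class and the promoter motif were chosen after values were seen. Positions came from GENCODE M21 (GRCm38) and promoters from RefSeq (GRCm38.p6). Python 3.11.15, numpy 2.4.6, scipy 1.17.1 and pandas 2.3.3 were used. The code that made the calls was also run on simulated counts, as a check of the code and not of these results.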

Additional observations from a re-analysis of the deposited data

Results flagged for a closer look

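At week 6 of anti-RANKL Spink1 in the tissue-antigen cells minus Aire-high cells was -0.0259 on the ln scale, with no UMI in 14 members, while the isotype controls gave 0.98 at week 2 and 0.76 at week 10. At week 2 of anti-RANKL the same difference for Hamp was -0.1576, against 0.16 and 0.42 in the controls. The Spink1 value rests on 2 UMIs in 109 Aire-high cells, in a library with 38 Spink1 UMIs, and with no UMI in the members it could not be positive. In both cases the treated library had the opposite sign to both controls, both genes belong to the rule that chose the members, and the difference between libraries was not tested with 1 treated library each.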

How the results depend on the processing

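With 3 of the 6 rule genes required, 173 of the 379 cells remained, and with 2 UMIs of each of 2 genes (an alternative chosen after seeing the data) 205. Without Cyp2a5 in the rule there were 316 and with a Krt10 limit of 2 there were 385. Thinning all cells to 2000 UMIs before the rule gave 358, of which 198 were among the 379 and 150 had held an Aire UMI before, and took week 2 of anti-RANKL from 83 to 47 cells. The mean share of the controls was 6.40%, and 3.93 to 8.86% with either one left out.

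Against Aire-high cells, 23 genes higher and 102 lower became 288 and 371 on log2 of pooled UMIs, 15 and 48 against all cells with Aire above 0, and 53 and 142 with at least 20 cells per class, which drops week 6. With members of at least 5 UMIs of a rule gene, chosen after seeing the data, they became 75 and 179. Thinning to 2000 UMIs gave 27 and 75. Leaving out 1 library at a time gave 22 to 53 higher and 90 to 142 lower. Of 288 values of the 24 named genes over 12 alternatives, 262 stayed within 1 SD over libraries, 26 moved, 14 of them on log2 of pooled UMIs (set on the ln scale) and 10 against Aire above 0, and 0 reversed. The alternatives of at least 20 cells and without week 6 use the same libraries. Leaving out 1 library cannot shift a mean over 6 by 1 SD, and these genes had the same sign in every library. Those alternatives could thus neither move nor reverse a value. A further alternative, a limit on the mean level of a gene, returned the main values. Only log2 of pooled UMIs, Aire above 0, thinning and members of at least 5 UMIs could change a label.

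The ZsGreen share of 77.2% was 42.1% at 2000 UMIs and 59.6% with 2 UMIs required. The gene number difference of 28.8 was 54.3 at 4000 UMIs, lower in 1 of 6 libraries. The share with 3 or more rule genes, 45.6%, was 30.4% at 2000 UMIs. The cause of these changes was not tested beyond the fewer UMIs or cells each alternative leaves. No paired analysis was possible because the labels give no replicate numbers that pair libraries of different conditions, and no result here comes from a test. The 2 cell classes were compared within each library, which pairs them by library, and those differences are given with their SD. Weeks 4 and 6 rest on 6 and 14 member cells.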
